A study of Mus musculus with 9 samples.

Results

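Ependymal cells line the brain ventricles and move cerebrospinal fluid with bundles of motile cilia, whereas the epithelial cells of the choroid plexus secrete that fluid and load it with carrier proteins such as transthyretin. Motile cilia are built on an axoneme of microtubules with dynein motors, their parts are carried along the shaft by intraflagellar transport, and their genes are switched on by the transcription factors FOXJ1 and RFX. Neither cell type is myeloid, and both are neighbours of the microglia and macrophages that were sorted here. Among 30463 cells kept from the CD11b-sorted brain cells of 9 libraries, 85 (0.279%) were ependymal and choroid plexus cells by a marker rule, and 7 of the 9 libraries held them. Members were selected on measured counts. A member had a unique molecular identifier (UMI, a tag that counts each captured transcript once) in 3 or more of the 9 genes Ccdc153, Tmem212, Rarres2, Dynlrb2, Enpp2, Kl, Folr1, Kcnj13 and Clic6, and in at most 1 of the microglial genes P2ry12, Tmem119, Siglech and Gpr34.

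The libraries came from female C57BL/6J mice aged 5 months. Ctrl mice (3 libraries of 1 brain each) were naive, D0 mice (3 libraries of 2 pooled brains) had eaten a diet with the CSF1R inhibitor PLX5622 at 1200 mg/kg for 14 days, and D2 mice (3 libraries of 2 pooled brains) had then returned to control diet for 2 days. The cerebellum was removed, myelin was depleted, and live CD11b+ cells were sorted, so that the members are cells that passed this gate and not a sample of the ventricular lining. Totals per library ran from 20257894 UMIs (D2-2) to 61230741 (D0-2), and the third D2 library, D2-3, which was not part of the study's own comparison, is used in group values only where this is stated.

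The members fell into a ciliated and a choroid set. All 25 cells with a UMI of Ccdc153 or Tmem212 had UMIs of both, as well as of Rarres2, which encodes the secreted protein chemerin, of Dynlrb2, a dynein light chain, and of Foxj1, which the rule did not use. None of the 25 had a UMI of Kl, and their highest Ttr count was 1 UMI. Of these 25 cells, 20 had 1 to 7 UMIs of Folr1, the folate receptor, and 5 had none. A strict split that calls ciliated only cells without Kl and Folr1 therefore left 5 ciliated cells and 20 mixed ones. Folr1 was found in 80% of the ciliated cells (median 10179 UMIs), against 0.217% of the 25296 microglia (median 7025 UMIs) and 0 of 120 astroglial cells (median 4931 UMIs). The 20 cells are described below with the 5 as ciliated cells, a choice made after their values were seen.

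The other 60 members had Kl, the co-receptor klotho, or Folr1 and neither ciliated marker. Ttr, which encodes transthyretin and was not part of the rule, had 60 to 7635 UMIs in 58 of them and made up 1.92% to 50.1% of each cell's UMIs. Enpp2, which encodes autotaxin, was found in 57 of the 58. The remaining 2 cells had no Ttr UMI and go against the name. Each had 1 UMI of Kl and 1 of Enpp2 and 4 or 5 of Rarres2, the minimum of 3 rule markers. The one from Ctrl-3 held 148 UMIs of Dcn, a collagen-binding proteoglycan of fibroblasts, and the one from D0-1 held 158 of Tagln and 154 of Acta2, contractile genes of smooth muscle, with 26 of Dcn. They are counted among the 60 as the rule places them, and no cell type is given for them.

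Malat1, an RNA kept in the nucleus, was at a low level in nearly every choroid barcode. The 58 choroid cells with Ttr had a median of 2 Malat1 UMIs and 651 in all among 220154 UMIs, 332 of them in 1 cell. The 34 of these cells with 1500 UMIs or more also had a median of 2. The 25 ciliated cells had a median of 338 and 8093 among 259815 UMIs, and the 2 cells without Ttr had 245 and 406. The part of this difference in the contrast of both sets was not tested.

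**Figure D1:**
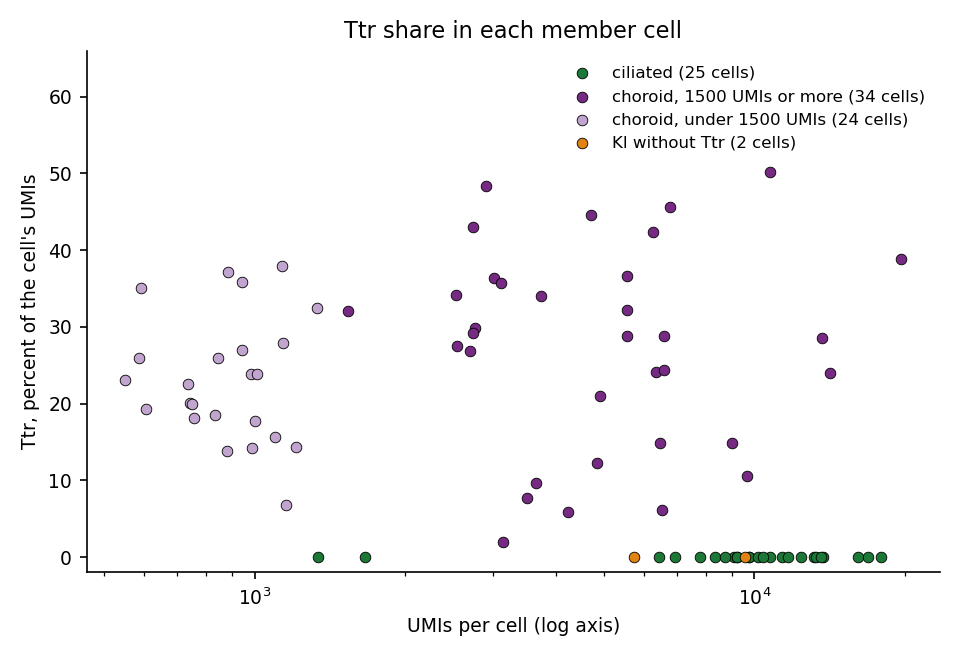
Each point is 1 member cell, placed by its UMIs (log axis) and by the percent of them from Ttr, and coloured by set. The 25 ciliated cells lie at 0 to 0.0102%, and 58 of 60 choroid cells lie between 1.92% and 50.1%, in shallow and deep cells alike.

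The promoters of the cilia genes were searched for the letters that RFX and forkhead factors such as FOXJ1 are known to bind, because these factors carry the ciliated program in textbook accounts. In the 250 bases before each RefSeq start site (GRCm38.p6, both strands), the short RFX site GTTGCCA was present in 15 of 83 genes of cilia transcription, axoneme and intraflagellar transport (18.1%), against 4.19% of all 27025 genes with a promoter in the table. The longer RFX site known as the X-box, which can overlap the short one, was present in 3 of the 83 (3.61%, against 0.444%), and the forkhead letters GTAAACA in 4 (4.82%, against 3.54%). Among 31 genes of choroid transport, secretion and identity, 1 held the short RFX site (3.23%). The OTX letters TAATCC, named for OTX2, a regulator of choroid plexus identity, were in 2 of the 31 (6.45%, against 7.21%). None of the 4 motifs was found in the 5 rule markers with a promoter in the table. These matches are descriptions of sequence, and binding was not measured. The 4 cilia genes with a short RFX site and the highest mean level in ciliated cells, and the 2 choroid genes with OTX letters, are shown 5′ to 3′ on the strand of the gene, with the motif on either strand in capitals.
Mns1: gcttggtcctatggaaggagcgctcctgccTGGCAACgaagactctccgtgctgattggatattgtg
Mlf1: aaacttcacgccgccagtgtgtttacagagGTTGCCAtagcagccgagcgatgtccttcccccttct
Iqca: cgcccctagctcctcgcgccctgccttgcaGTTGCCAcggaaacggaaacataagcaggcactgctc
Iqcg: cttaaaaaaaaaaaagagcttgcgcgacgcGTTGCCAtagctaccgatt
Car14: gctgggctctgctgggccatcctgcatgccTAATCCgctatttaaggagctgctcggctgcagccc
Otx2: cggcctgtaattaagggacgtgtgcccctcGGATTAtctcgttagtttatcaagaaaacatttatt
They lie at chr9:72438426-72438492 (+, Mns1), chr3:67373962-67374028 (+, Mlf1), chr1:90153500-90153566 (-, Iqca), chr16:33056187-33056235 (-, Iqcg), chr3:95904711-95904776 (-, Car14) and chr14:48665285-48665350 (-, Otx2). The motif begins 73, 105, 100, 19, 61 and 211 bases before the start site, in the same order. Mean levels were 698, 684, 451 and 421 CPM (defined below) for Mns1, Mlf1, Iqca and Iqcg in ciliated cells.

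Levels are given in CPM, the UMIs of a gene among the summed cells of a set in a library scaled to a common total, with the mean and SD over the 7 libraries. The ciliated set held 259815 UMIs and the choroid set 235452. Because each captured molecule is counted once from its 3′ end, CPM was not divided by gene length. The split uses measured genes, so that the contrast of both sets is a description with no test.

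The genes that chose the members are given first, as a description of what the rule selected. Tmem212, a membrane protein of ciliated cells, was at 2466 and 3564 CPM in Ctrl-1 and Ctrl-3, 2514 and 3452 in D0-1 and D0-3, and 3163, 2841 and 2657 in D2-1, D2-2 and D2-3. The 3 groups of libraries overlapped. Ccdc153, a coiled-coil protein of the axoneme (chr9:44240676-44247306 on mm10, + strand), had 2610 ± 1373 CPM (SD, n = 7), from 1129 in D2-3 to 5507 in the single ciliated cell of D0-1. Rarres2 had 3760 ± 1026 CPM and Dynlrb2 977 ± 249. Choroid cells had no UMI of Ccdc153 and Tmem212 because the split defines them so, and no fold is read from these genes. Elsewhere, a fold against a set without a UMI is a lower bound, with 3 counts taken as the floor of that set.

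Among the choroid markers, Enpp2 (chr15:54838901-54952892, - strand) was at 14864 and 10781 CPM in Ctrl-1 and Ctrl-3, 11837 and 12330 in D0-1 and D0-3, and 14950, 10862 and 7665 in D2-1, D2-2 and D2-3, again with overlap of all groups. Without the 2 cells that lack Ttr, Ctrl-3 was at 20003 CPM, in 1 cell, and D0-1 at 15270, and the groups still overlapped. Ttr averaged 232508 ± 48290 CPM, or 23.3% ± 4.83 of the set's UMIs. Kl had 795 ± 354 CPM, from 340 in D2-3 to 1378 in Ctrl-3 (971 ± 691 and 2425 without those 2 cells), and Kcnj13, an inwardly rectifying potassium channel, had 901 ± 360. The other markers were Folr1 at 1048 ± 118 CPM and Clic6, a chloride channel protein, at 378 ± 138. Without those 2 cells, Folr1 was at 1216 ± 322 CPM, Clic6 at 456 ± 284, Kcnj13 at 1002 ± 330 and Ttr at 261732 ± 43090. The 25 ciliated cells had 7 UMIs of Enpp2, 1 of Kcnj13 and none of Kl. These genes chose the members or the choroid set, and no fold is read from them either.

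**Figure D2:**
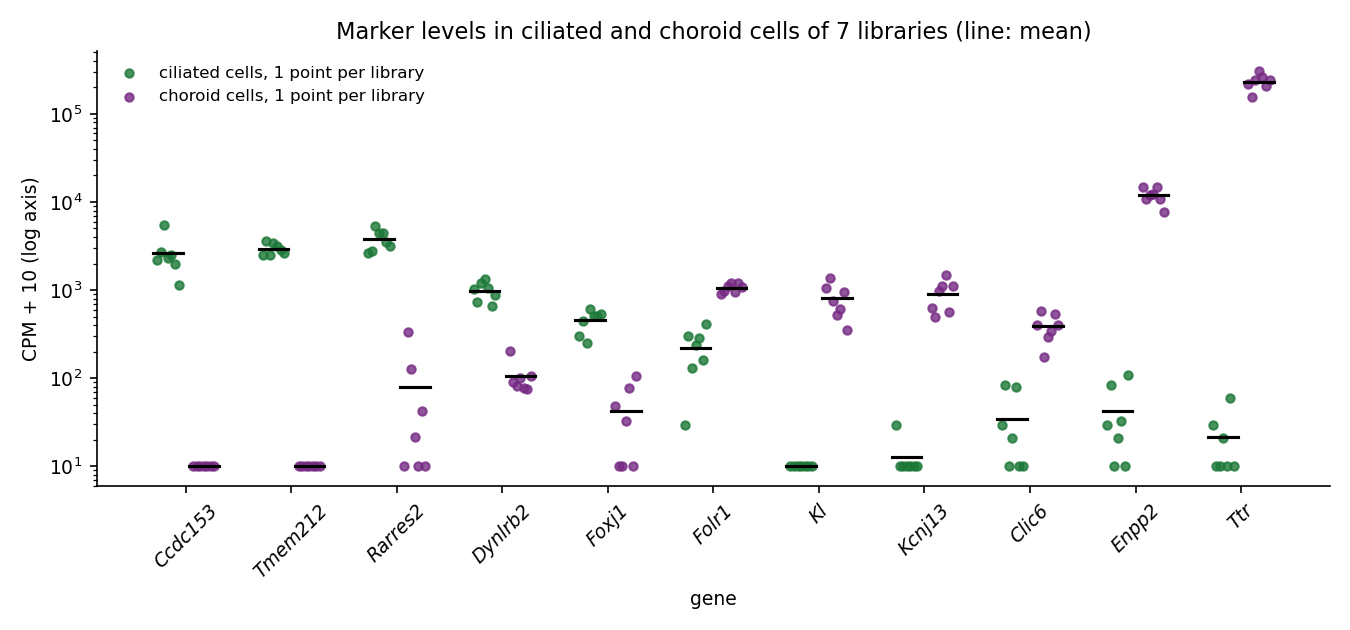
Points give CPM + 10 (log axis) of each marker in the summed ciliated (green) or choroid (purple) cells of a library, with a line at the mean of the 7 libraries. Ccdc153 and Tmem212 have no UMI in choroid cells, by the definition of the set, and Kl has none in ciliated cells, while Folr1 is present in both sets.

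Across all genes, the strict split (5 ciliated cells) placed 1964 of 4198 genes (46.8%) over 2-fold higher in ciliated cells and 800 (19.1%) over 2-fold higher in choroid cells, among genes of at least 50 CPM in either set, with a pseudocount of 10 CPM. With all 25 ciliated cells the counts were 1834 (41.9%) and 569 (13.0%) of 4376. When CPM was computed without Ttr, they were 1485 and 860, against which the list counts without Ttr are read. All values below are for the 25 cells. The median log2 ratio of all tested genes was 0.70, and 0.33 when CPM was computed without Ttr. A list is read against these medians.

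Cilia genes were higher in ciliated cells almost throughout. Of 70 axoneme genes all were detected in ciliated cells and 54 in choroid cells. Of the 67 that passed the level filter, 66 were over 2-fold higher in ciliated cells (65 without Ttr) and none in choroid cells, with a median log2 ratio of 3.31. The list summed to 22751 ± 3122 CPM in ciliated and 2255 ± 1096 CPM in choroid cells. Fam183b, a cilia protein, had 1279 ± 274 CPM and no choroid UMI, which made it at least 93.6-fold higher. Rsph1, a radial spoke protein, had 1158 ± 258 against 251 ± 192 CPM, and Ak7, an axonemal adenylate kinase, 866 ± 278 against 46.6 ± 56.3. Sntn, which marks cilia tips, and Stoml3, a stomatin-like membrane protein, were at least 42.9-fold and 38.7-fold higher.

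Intraflagellar transport genes were also higher in ciliated cells, with a lower median ratio. All 21 were detected in ciliated and 20 in choroid cells. Of the 18 that passed the filter, 15 were over 2-fold higher in ciliated cells (13 without Ttr) and none in choroid cells (median log2 ratio 1.68). The train proteins Ift43, Ift81 and Ift74 had 365 ± 184, 344 ± 177 and 337 ± 225 CPM in ciliated cells, and 76.9 ± 37.4, 23.7 ± 29.4 and 115 ± 82.1 in choroid cells. Of 8 transcription regulators of multiciliated cells, 7 had a UMI in ciliated cells and 3 passed the filter, all of them over 2-fold higher there. Foxj1 (chr11:116330704-116335399, - strand) had 442 ± 131 CPM and 126 UMIs in ciliated cells against 6 UMIs in choroid cells. Foxj1 UMIs were found in 0.0672% of microglia. Myb had 32 UMIs against 0, and Rfx3 26 against 4. Mcidas, which drives multiciliated fate during development, was at 0 in both sets, and its floor is 11.5 CPM over the ciliated and 12.7 CPM over the choroid cells.

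The ependymal surface and glial genes went with the cilia genes. Of 20 such genes 18 were detected in ciliated cells, and all 16 that passed the filter were over 2-fold higher there (15 without Ttr, median log2 ratio 4.21). Nnat, a small proteolipid, had 4164 ± 1915 CPM with 1136 UMIs against 2. Clu, the extracellular chaperone clusterin, was high in both sets at 3504 ± 622 and 1620 ± 224 CPM, and Vim, an intermediate filament protein, had 2497 ± 1088 against 257 ± 393. Aqp4, the water channel of astroglia and ependyma, had 558 ± 170 CPM in ciliated cells and no choroid UMI (at least 39.3-fold). Among the 10 largest ratios of the ciliated side were also Mlc1, a membrane protein that works in glial volume control (at least 63.1-fold), and Calb1, a calcium-binding protein (at least 48.6-fold, in 17 of 25 cells).

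On the choroid side, genes of ion and solute transport and of secretion stood out. Of 18 transport genes 17 were detected, 13 passed the filter and 12 of these were over 2-fold higher in choroid cells, with none higher in ciliated cells and a median log2 ratio of -3.01. Atp1b1, a subunit of the sodium pump, had 860.5 ± 201 CPM against 221 ± 80.8, and Car2, carbonic anhydrase, 623 ± 340 against 6.37 ± 10.9. The water channel Aqp1 had 10 UMIs in 60 choroid cells and 0 in ciliated cells. Of 22 genes of secretion and identity all were detected in choroid cells, and 14 of the 18 that passed the filter were over 2-fold higher there (median log2 ratio -2.99). After Ttr, the highest of them were 1500015O10Rik (2657 ± 451 CPM, against 1414 ± 558 in ciliated cells) and Igfbp2, an IGF-binding protein (1526 ± 275 against 159 ± 171). Otx2 had 32 UMIs in choroid and 12 in ciliated cells.

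Of the 10 largest ratios of the choroid side, 3 were of rule markers (Enpp2, Kl and Kcnj13) and are left aside. The others included Ptgds, prostaglandin D synthase (518 UMIs against 2, a ratio of 286 with a 95% counting interval of 78.7 to 2366), 2900040C04Rik (at least 128-fold) and Cox8b, a cytochrome oxidase subunit (at least 52.2-fold). The Cox8b bound pools unequal libraries, with 142 UMIs in 22 of 60 choroid cells. Cox8b was at 38.7 and 0 CPM in Ctrl-1 and Ctrl-3, 829 and 899 in D0-1 and D0-3, and 267, 427 and 437 in D2-1, D2-2 and D2-3. The Ctrl values rest on 7 choroid cells with 38171 UMIs, and 1 of the 2 in Ctrl-3 lacks Ttr. The share of all genes that separate the groups in this way was not counted, and no change with treatment is read from Cox8b. For Ttr the ratio was 22213, with an interval of 7600 to 107716, from 60390 against 3 UMIs. Dcn is also among the 10, but its 174 UMIs all came from the 2 cells without Ttr. S100a9 and S100a8, calprotectin subunits of neutrophils, entered with 257 and 232 UMIs from 8 and 9 of 60 cells. The intervals cover counting error only.

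**Figure D3:**
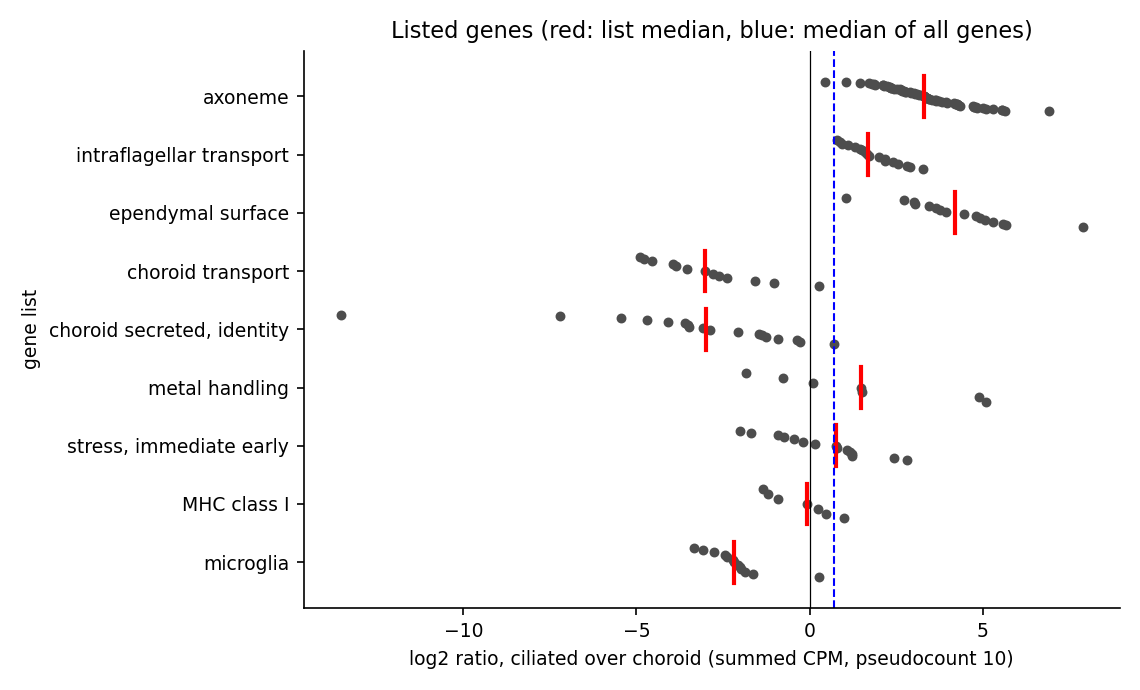
Points are listed genes that passed the level filter, placed by their log2 ratio of ciliated over choroid cells (summed CPM, pseudocount 10), with the list median in red and the median of all genes (0.70) as a blue dashed line. All points of the axoneme, intraflagellar transport and ependymal surface lists lie right of 0, all but 1 point of each choroid list lie left of 0, and the microglia list has a median of -2.19.

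Of 10 metal-handling genes 7 passed the filter, with 4 over 2-fold higher in ciliated cells and 1 in choroid cells (4 and 2 without Ttr). Among all genes the shares were 41.9% and 13.0%, and no direction is read from so few genes. The metallothioneins Mt1 and Mt2, which bind zinc and copper, had 5093 ± 1395 and 658 ± 247 CPM in ciliated cells against 145 ± 53.8 and 15.0 ± 30.5 in choroid cells, and no library overlapped for Mt1. Mt3 had 4748 ± 1362 against 1742 ± 597 CPM. Ferritin heavy chain, Fth1, had 6550 ± 1540 and 5819 ± 1407 CPM, with overlapping libraries. Trf, transferrin, was on the choroid side with 251 ± 149 against 41.0 ± 55.8 CPM.

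Of 21 stress and immediate early genes 15 passed the filter, with 6 over 2-fold higher in ciliated and 2 in choroid cells (2 and 4 without Ttr). Counts of 6 and 2 among 15 are near the background shares of 41.9% and 13.0% of all genes. The list median of 0.76 is near the 0.70 of all genes. Without Ttr, the counts among all 4376 genes were 1485 and 860, and both medians were 0.33. No direction is read from the list. The chaperone Hsp90aa1 led it at 8013 ± 2960 CPM against 1136 ± 271 CPM. Hspa8 had 2229 ± 397 against 1208 ± 499 CPM, and Jun, an immediate early factor, 521 ± 519 against 63.1 ± 66.3. Of 21 interferon-stimulated genes 5 passed, with 3 over 2-fold higher in ciliated and 1 in choroid cells (3 and 2 without Ttr). Ifitm3, a membrane restriction factor, had 1254 ± 531 CPM in ciliated against 169 ± 217 in choroid cells, and Ifi27 had 209 ± 153 against 967 ± 265. Of 10 genes of MHC class I presentation 7 passed, with none over 2-fold higher in ciliated and 2 in choroid cells (3 without Ttr). H2-K1 and H2-D1 had 274 ± 180 and 180 ± 88.8 CPM in ciliated cells, and B2m, the light chain, 70.8 ± 90.8 against 1984 CPM in microglia.

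Ligands of CSF1R, the receptor that PLX5622 blocks, were sparse. Csf1 had 3 UMIs in 25 ciliated cells and 7 in 60 choroid cells, and Il34 had 1 and 2. Csf1 UMIs were in 12% and 5% of the cells, against 17.8% of microglia, and Il34 in 4% and 3.33%, against 42.1% of 252 mural cells. Of 13 such niche genes 6 passed the filter, among them Cd47, a signal against phagocytosis (94.4 ± 69.3 and 79.8 ± 54.0 CPM), and Tgfb2, a growth factor (44.5 ± 43.6 and 136 ± 75.9). Of 8 mitosis genes none passed. They summed to 36.4 ± 33.1 CPM in ciliated and 28.1 ± 39.3 in choroid cells, where microglia had 573.

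The sort marker Itgam, which encodes CD11b, was absent or near absent. None of 25 ciliated cells had a UMI, a level of at most 11.5 CPM, and 4 of 60 choroid cells had 1 each. This share of 6.67% (median 2748 UMIs) compares with 83.6% of microglia (median 7025 UMIs), 7.85% of 917 endothelial cells (median 3828 UMIs), 3.33% of astroglial cells (median 4931 UMIs) and 3.97% of mural cells (median 4394 UMIs), classes that should lack the gene. The choroid share lay between the mural and endothelial shares. The 4 Itgam UMIs were in D0-1 and D0-3, 2 in each, the libraries where neutrophil and microglial genes were also highest in choroid cells. The further microglia list of 14 genes summed to 318 ± 239 CPM in ciliated and 1463 ± 1345 CPM in choroid cells, against 52235 in microglia.

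Markers of other cell types were read in the same sets. The neutrophil list of 8 genes summed to 20.2 ± 36.6 CPM in ciliated cells. In choroid cells it was at 6108 CPM in D0-1 and 2844 in D0-3, and at 334 or below in the other 5 libraries, with S100a9 the most abundant and all 8 genes detected. The further microglia list was also highest in those libraries, at 2652 CPM in D0-1 and 3968 in D0-3, against 1045 or below elsewhere. The part of these genes in the choroid values was not tested. Of 9 neuronal genes 2 were detected in ciliated cells and none in choroid cells, and of 5 erythrocyte genes none and 2. Of 10 endothelial genes 4 and 5 had a UMI and Cldn5, Ly6c1 and Cdh5 were at 0 in both. The lipid transfer protein Pltp made up most of that list, with 2108 ± 523 CPM in ciliated cells. Of 10 oligodendrocyte genes 4 and 5 were detected, with Mog, Mag and Mobp at 0, and Cnp led at 190 ± 119 CPM in ciliated cells. Of 10 astroglial genes 9 and 6 were detected, with Gfap, an intermediate filament protein, at 275 ± 416 CPM in ciliated cells, from 9 of the 25. Of 10 mural genes 6 and 7 were detected. In ciliated cells the contractile genes Acta2, Myl9 and Tagln were found in 17, 12 and 7 of 25 cells (820 ± 1215, 89.3 ± 97.1 and 92.9 ± 138 CPM), and Vtn, Kcnj8, Higd1b and Notch3 were at 0. The part of these genes in the ciliated values was not tested. Of 7 meningeal fibroblast genes 1 was detected in ciliated cells and 7 in choroid cells, where 4 passed the filter and Dcn led. Without the 2 cells that lack Ttr, this list summed to 31.9 ± 55.4 CPM in choroid cells, against 2525 ± 6123 with them. The mural list in choroid cells likewise went from 1366 ± 2995 to 79.3 ± 80.0 CPM.

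The share of members was highest in 1 D0 library, and all D2 libraries were above all Ctrl libraries. Members were 9 of 4262 kept cells in Ctrl-1 (0.211%), 0 of 2577 in Ctrl-2, which allows a share of up to 0.116% by 3 counts of the total (0.143% as the upper end of the two-sided exact interval), and 3 of 3699 in Ctrl-3 (0.0811%). In D0 they were 8 of 4147 (0.193%), 0 of 4980 (up to 0.0602%, or 0.0740% by the exact interval) and 33 of 2637 (1.25%). In D2 they were 13 of 3935 (0.330%), 11 of 2418 (0.455%) and, in D2-3, 8 of 1808 (0.442%). D0-3 alone held 33 of the 85 members.

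D0 averaged 0.481% ± 0.674 (SD, n = 3) against 0.0974% ± 0.107 in Ctrl (n = 3), a difference of 0.384 percentage points (two-sided exact permutation test over libraries, p = 0.7, where 0.1 is the smallest possible). Without D0-3 the difference was -0.00097. D2 averaged 0.393% ± 0.0881 (n = 2), 0.295 above Ctrl, and both libraries were above every Ctrl library (exact permutation test, p = 0.2, the smallest that 2 against 3 allow). With D2-3 the mean was 0.409% ± 0.0686 and p = 0.1 (exact permutation test, n = 3 against 3), again the smallest possible. The share was also taken among cells other than microglia, which the inhibitor depletes. Microglia were 25296 of 30463 kept cells, and among the 5167 others members were 3.61%, 0% and 1.66% in Ctrl, 1.25%, 0% and 5.12% in D0, and 1.89% and 1.70% in D2-1 and D2-2. On this scale D2 exceeded Ctrl by 0.036 percentage points (exact permutation test, p = 1, n = 2 against 3) and D0 by 0.366 (p = 1, n = 3 against 3). D2-3 was at 0.804% on this scale, and with it the D2 mean was 1.46% against 1.76%, a difference of -0.294 (exact permutation test, p = 0.9, n = 3 against 3). In a further setting, cells under 1000 UMIs were left out and each other cell was thinned to 1000 UMIs, which left 19 members in D0-3. The differences were then 0.210 (D0) and 0.219 (D2) points of the cells that remained. The parts of thinning and of leaving out cells in this were not tested. In the edgeR quasi-likelihood test of cells per class, the log2 fold was 2.13 for D0 (adjusted p = 0.247) and 1.88 for D2 (adjusted p = 0.391). More cells of this kind and fewer of the others among the sorted cells cannot be told apart from a share.

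**Figure D4:**
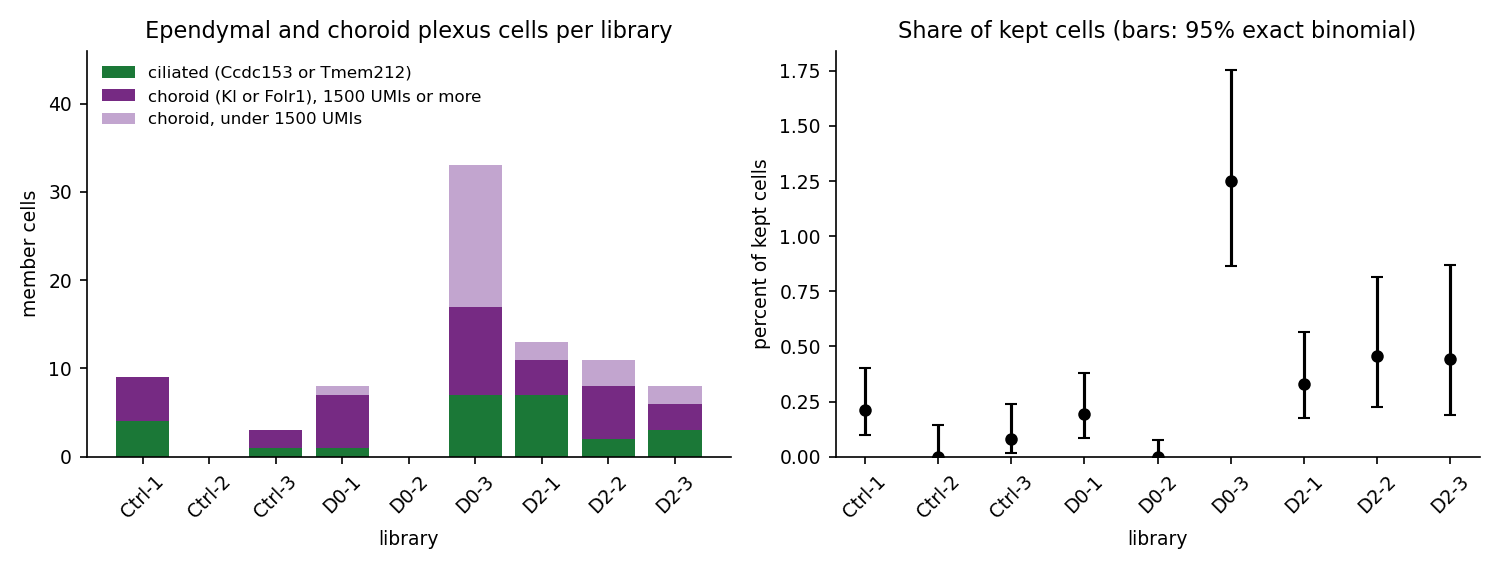
The left panel stacks ciliated cells, choroid cells of 1500 UMIs or more and shallower choroid cells by library, and the right panel gives members as percent of kept cells with 95% exact binomial intervals. D0-3 has the most members (33) and 16 of the 24 shallow choroid cells, and Ctrl-2 and D0-2 have none.

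The makeup of the members varied with the split and the depth, and no test over these libraries could reach 0.05. With the strict split, choroid cells were 62.5% and 100% of ciliated plus choroid cells in Ctrl-1 and Ctrl-3, 100% in D0-1 and D0-3, and 75% and 100% in D2-1 and D2-2 (exact permutation test over libraries, p = 1 for D0 and for D2, n = 2 against 2, smallest possible 0.333). With all 25 ciliated cells counted, the shares were 55.6% and 66.7% in Ctrl, 87.5% and 78.8% in D0, and 46.2% and 81.8% in D2. D0 then averaged 83.1% against 61.1%, with no overlap (p = 0.333, exact permutation test, n = 2 against 2, the smallest possible). Without members under 1500 UMIs, D0-3 was at 58.8%, between both Ctrl libraries, and the D0 mean was 72.3% (p = 0.667, exact permutation test, n = 2 against 2). With the strict split after thinning to 1000 UMIs, again without cells under 1000 UMIs, the mean shares were 31.0% in Ctrl, 72.4% in D0 and 52.8% in D2. The differences were 41.4 (p = 0.333) and 21.8 points (p = 1, exact permutation tests, n = 2 against 2).

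Shallow barcodes weighed on the choroid count. Of the 60 choroid cells 24 had under 1500 UMIs, and 16 of these were in D0-3, where the median choroid cell had 1053 UMIs, against 2276 to 6271 in the other 6 libraries. In D0-3, 174 kept barcodes had under 1500 UMIs. Of these, 102 held 50 or more Ttr UMIs, 70 held none, and no barcode had a Ttr share between 1% and 5%. All other libraries together had 21 such shallow barcodes rich in Ttr. The 16 shallow members of D0-3 had 50.8 Ttr UMIs per Enpp2 UMI. The 8 of other libraries had 15.6, and the 34 deeper choroid cells with Ttr had 21.0. The median Malat1 count was 3.5 UMIs in the 16 and 1.5 in the 8. Whether each is a whole cell was not tested. Without members under 1500 UMIs, the differences from Ctrl were 0.174 points for D0 (p = 0.7) and 0.195 for D2 (p = 0.2, exact permutation tests, n = 3 and 2 against 3).

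Just inside the limit of 3 rule markers were 21 members with exactly 3, of which 19 had 50 or more Ttr UMIs and 13 came from D0-3. Just outside were 62 cells with 2, of which 40 had 50 or more Ttr UMIs and 38 came from D0-3. With 4 markers there were 18 cells, 7 of them from D0-3. Another 20 kept cells had 3 or more rule markers but 2 or more microglial genes. In all, 98 kept barcodes occurred in 2 or more libraries, and none was a member.

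Ttr RNA was also present outside the members. It gave 20.6, 9.07 and 22.0 CPM in microglia of the Ctrl libraries, 53.4, 0.896 and 226 in D0, and 13.4, 21.0 and 5.26 in D2-1, D2-2 and D2-3, and was found in 10.1% of microglia. By CPM, D0-2, without a member, had the lowest level and D0-3, with 33, the highest, but D2-3, with 8, was below Ctrl-2, with none. By the share of microglia with a Ttr UMI, D0-1 was highest at 25.8%, with at most 4 UMIs in a cell. D0-3 was at 17.4% (at most 275 UMIs in a cell) and Ctrl-3 at 3.07% (at most 123). D2-3 was at 5.66% and Ctrl-2 at 2.32%. Summed microglia with no rule marker did not give a called Ttr difference (edgeR quasi-likelihood test, log2 fold 1.47 ± 1.01 SE and adjusted p = 0.346 for D0, 0.93 ± 1.12 and 0.622 for D2), where 18.0% and 15.4% of 12754 genes were called. The D0 value was 0.22 without D0-1 and 2.48 without Ctrl-1, and D2 was 1.95 without Ctrl-1 and 0.53 without D2-2. For D0, 2298 genes were called, 1025 without Ctrl-3 and 417 with D2-3.

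Gene by gene tests of D0 or D2 against Ctrl within the members were not run, because the minimum of 10 cells set for a library was reached by no Ctrl library, and 5 cells by only 1. Sums over lists are given in their place. Ciliated cells numbered 4 and 1 in Ctrl-1 and Ctrl-3, 1 and 7 in D0-1 and D0-3, and 7, 2 and 3 in D2-1, D2-2 and D2-3, so that several of these sums rest on 1 or 2 cells. Axoneme genes summed in ciliated cells to 24490 and 18768 CPM in Ctrl, 24782 and 19704 in D0, and 24935 and 26515 in D2-1 and D2-2. Stress and immediate early genes gave 8273 and 13166 CPM in Ctrl, 13289 and 11848 in D0, and 15240 and 14504 in D2-1 and D2-2. D2-1 and D2-2 were above both Ctrl libraries, and D2-3 was at 9566, between them. Choroid transport genes summed in choroid cells with Ttr to 4297 and 7122 CPM in Ctrl, 4437 and 3585 in D0, and 6140 and 3446 in D2-1 and D2-2, with overlap of all groups. With the 2 cells without Ttr, Ctrl-3 was at 3810 and D0-1 at 3457. Both D0 libraries were then below both Ctrl libraries, and D2 still overlapped Ctrl and D0. Neutrophil genes were at 7895 and 2844 CPM in those D0 cells and at 38.7 and 0 in Ctrl. Interferon-stimulated genes in ciliated cells gave 2797 and 2619 CPM in Ctrl, 599 and 1829 in D0, and 2292, 1396 and 1926 in D2-1, D2-2 and D2-3. Each treated library was below both Ctrl libraries, but Ctrl-3 is 1 cell, as is D0-1. How many other lists separate the groups in this way was not counted, and no change with treatment is read from this list. In choroid cells the same list gave 1471 and 2837 CPM in Ctrl, 1705 and 1203 in D0, and 801, 1477 and 1310 in D2, and the groups overlapped. These sums include the 2 cells without Ttr, and 1 of them is among the 2 choroid cells of Ctrl-3.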

How the data were processed

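Single cells were captured with the 10x Genomics Chromium 3′ v3 kit. The authors mapped reads to mm10 with Cell Ranger and deposited raw UMI counts per gene and barcode without normalization. The submitters' processing notes name version 3.1.0, and the file headers name 3.0.2 in 6 and 3.1.0 in 3 libraries. Those with 3.1.0 are Ctrl-2, Ctrl-3 and D2-3. Without D2-3, all treated libraries have 3.0.2, as Ctrl-1 does, so version and group are partly confounded. Barcodes were kept from 500 up to 20000 UMIs and from 200 genes, if mitochondrial genes gave no more than 10% of UMIs. No doublet caller was run. Members and lists were chosen with earlier results of these data known. Two-sided exact permutation tests compared library shares (scipy 1.17.1); edgeR 4.0.16 (TMM, filterByExpr, quasi-likelihood, Benjamini-Hochberg at 0.05) tested UMIs summed over microglia and cells per class, with DESeq2 1.42.0 as an alternative. On simulated D0 against Ctrl counts with a common spread for all genes, edgeR recovered 82% of 200 changed genes among 12526, and 5.20% of its calls were false. The changed genes were drawn above the median level and changed 2-fold up or down. Recovery in the real counts was not tested. Microglia had a UMI in 3 or more of 6 markers. The libraries are the replicates, and D0 and D2 share the Ctrl libraries. Floors are 3 counts. Named genes were the rule markers, the 3 highest of each list in its set, the 10 largest ratios each way from 200 CPM, and Itgam, Csf1 and Il34; others named were chosen after their values were seen. Positions came from GENCODE M21 (GRCm38), promoters from RefSeq. Values of some listed genes are not reported here.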

Additional observations from a re-analysis of the deposited data

Results flagged for a closer look

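Signal was found in barcodes that the limits on UMIs and mitochondrial share left out. Over 20000 UMIs, 14 barcodes met the marker rule, 13 choroid and 1 ciliated. There were 5 in D0-1, 3 in D0-3 and 3 in D2-3, against at most 1 in a Ctrl library. The 13 choroid barcodes had a median of 67224 UMIs, of which the median Ttr count was 20472. Over 10% mitochondrial UMIs, 21 met the rule, 18 choroid and 3 ciliated, with 6 in D2-1 against at most 4 in a Ctrl library.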

How the results depend on the processing

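The D0 excess of members stayed positive under 16 settings, which include the share among cells other than microglia and the edgeR log2 folds. When libraries were left out in turn, the difference in the share of kept cells ranged from -0.00097 to 0.625 percentage points, the lowest without D0-3. This D0 difference was 0.845 points with 2 or more rule markers and 0.213 with 4 or more. The D2 excess stayed positive under 17 settings, of the same kinds (0.233 to 0.357 points of kept cells with libraries left out). It was -0.294 among cells other than microglia with D2-3 included. No setting brought a share test under 0.05, which the permutation designs cannot reach. The labels give the groups the same replicate numbers. Deviations of same-numbered libraries had r from -0.088 to 0.384 in microglia, and only the pair of D0-1 and D2-1 was below 0. Libraries with different numbers had r from -0.3725 to 0.2804. Whether libraries of equal number are paired was not tested. With the replicate block, edgeR gave a log2 fold of 1.28 (D0, adjusted p = 0.491) and 3.33 (D2, adjusted p = 0.212). The choroid share difference ranged from 0 to 37.5 points for D0 and from -12.5 to 25 for D2 with libraries left out (-12.5 without Ctrl-1, -6.25 without D2-2, 0 for D0 without Ctrl-1), and for D2 was 0 with no limit on microglial genes and -3.61 with all 25 ciliated cells and no member under 1500 UMIs. With the strict split of 5 ciliated cells, genes over 2-fold higher in choroid cells numbered 800, and 1238 without Ttr in CPM. They numbered 504 when 2 UMIs of the split markers were required and Folr1 was allowed in ciliated cells. Genes called in microglia numbered 1084 (D0) and 855 (D2) when the software version in the headers was a term, 417 and 1188 with D2-3, and 1025 to 2417 and 763 to 2735 with libraries left out (lowest without Ctrl-3 and without D2-2). The microglial Ttr log2 fold for D2 was -0.050 with the version term. In the fits with that term, Ctrl-1 was the only Ctrl library that shared the version of the treated libraries. The causes were not tested. Gene tests within members were not run under any setting, for want of libraries with 10 cells. With 0 to 33 members per library, counting error limits each share. Settings with members under 1500 UMIs left out, no mitochondrial limit, all 25 ciliated cells (also without members under 1500 UMIs), D2-3 among cells other than microglia, Ttr left out of CPM, equal library weights, the 2 cells without Ttr left out, D2-3 in the microglia fit and the version term were chosen after seeing the data.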
